A study of Mus musculus with 6 samples.

Results

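The genes examined here encode the host's major histocompatibility complex (MHC) class I molecules and the machinery that loads peptides onto them, read in tumours that grew from human cells in mice. Members were the rows of the mouse count table whose symbol begins with H2-K, H2-D1, H2-Q, H2-T, H2-Bl or H2-M followed by a digit, together with B2m, Tap1, Tap2, Tapbp, Psmb8, Psmb9 and Nlrc5. These were 40 of the 55536 named rows, 33 of them with an H2 symbol. A filter on low counts left 27 for testing, and the other 13 are given by their counts. The symbol rule also took in H2-Ke6, which encodes a hydroxysteroid dehydrogenase and no class I molecule.

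A class I molecule is a heavy chain bound to the light chain beta-2 microglobulin, the product of B2m. The immunoproteasome subunits Psmb8 and Psmb9 take part in cutting peptides, the transporter Tap1/Tap2 carries them into the endoplasmic reticulum, and tapasin (Tapbp) helps to load them. H2-K1 and H2-D1 encode classical heavy chains, which present peptides to CD8 T cells and are read by natural killer (NK) cells. The Q, T and M genes encode nonclassical chains, and inbred mouse strains differ in which of these genes they carry and in their sequence. NLRC5, the product of Nlrc5, is a transactivator of class I genes, which interferons also raise.

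Cells of DU145, an established human prostate cancer line, were placed under the skin of male mice whose strain label reads Nude mice, with no background strain named. Nude mice lack a normal thymus and are short of T cells. The animals were randomised once tumours could be felt, and 3 tumours of the control group and 3 of the Zelnorm group were sequenced. Zelnorm is a trade name of tegaserod, an agonist of a serotonin receptor, and was given by mouth each day. The labels give no dose and name no vehicle, and the titles of that group carry the letters MBZ where the treatment label has Zelnorm. The tumours are labelled as separate samples without naming an animal for each, and p-values measure the spread between these samples. Libraries are named by their columns, controls NC10, NC4 and NC9 and Zelnorm MBZ_254, MBZ_257 and MBZ_259, and values follow that order. The mouse table held 5817165 to 9228446 counts per library. Levels are CPM, counts scaled to the summed count of the tested mouse genes times a TMM factor, and fold changes are the log2 of Zelnorm over control.

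Promoters of several members carry short motifs known from class I genes. Upstream windows of H2-K1, H2-Q7, H2-T22, H2-M3 and B2m are printed to show members with and without a kappaB match, whose levels in the tumours are described further on. The windows are RefSeq sequence of GRCm38.p6, lie just upstream of the gene start and leave out annotated UTRs. Capitals mark GGGATTCCC (the kappaB site of class I promoters), TTTCACTT (part of the interferon-stimulated response element), TGACG (the core of a cyclic AMP response element) and CCAAT, each on either strand, and no match overlapped another in these windows.
H2-K1, chr17:34000348-34000527, minus strand: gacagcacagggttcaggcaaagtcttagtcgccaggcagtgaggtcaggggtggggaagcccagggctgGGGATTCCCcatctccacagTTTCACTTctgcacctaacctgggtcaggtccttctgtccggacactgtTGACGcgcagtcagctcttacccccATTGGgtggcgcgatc
H2-Q7, chr17:35438975-35439154, plus strand: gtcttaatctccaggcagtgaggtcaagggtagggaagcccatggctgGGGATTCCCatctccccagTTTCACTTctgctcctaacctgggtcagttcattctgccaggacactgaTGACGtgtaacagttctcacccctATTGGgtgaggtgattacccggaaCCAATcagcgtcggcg
H2-T22, chr17:36042748-36042960, minus strand: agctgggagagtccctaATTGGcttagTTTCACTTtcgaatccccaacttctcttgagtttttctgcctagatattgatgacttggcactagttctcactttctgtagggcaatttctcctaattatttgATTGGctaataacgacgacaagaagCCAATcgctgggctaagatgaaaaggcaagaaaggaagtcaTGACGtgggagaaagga
H2-M3, chr17:37270040-37270219, plus strand: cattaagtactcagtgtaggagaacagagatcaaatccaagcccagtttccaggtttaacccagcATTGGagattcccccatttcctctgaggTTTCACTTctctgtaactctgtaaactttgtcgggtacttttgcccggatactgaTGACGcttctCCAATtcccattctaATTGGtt
B2m, chr2:122147506-122147685, plus strand: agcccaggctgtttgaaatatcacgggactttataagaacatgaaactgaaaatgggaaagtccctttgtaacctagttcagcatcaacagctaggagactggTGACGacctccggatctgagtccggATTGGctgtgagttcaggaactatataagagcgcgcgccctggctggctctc

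RefSeq gave 250 bases upstream of the start for 29 of the 40 members. GGGATTCCC was present in 4 of them (H2-K1, H2-D1, H2-Q6 and H2-Q7), and in 0.311% of 27025 mouse promoters. TTTCACTT was present in 9 members and 1.44% of promoters, TGACG in 14 members and 17.9% of promoters, and CCAAT in 25 members and 34.5% of promoters. Where a gene had more than 1 window, the member counts used the window nearest the annotated gene start. The share over all promoters used the first listed window, so the choices differ. In H2-K1 the kappaB match began at -110 from the start, the TTTCACTT match at -90 and the TGACG match at -41. The window of B2m held TGACG at -78 and CCAAT at -53 and no exact match to GGGATTCCC or TTTCACTT. Variants of these motifs that differ by a base were not searched for. H2-M3 and H2-T22 held TTTCACTT at -101 and -191 and no kappaB match. A match describes these letters only, and many of the members are copies of each other, so they are not independent sequences.

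No member passed the test between Zelnorm and control tumours. Of the 27 tested members, 0 had an adjusted p under 0.05 in edgeR's quasi-likelihood test with Benjamini-Hochberg adjustment over all 14459 tested genes, against a background of 0% called, and each adjusted p was 1. DESeq2 and limma-voom also called 0 members. At an unadjusted p under 0.05, 4 members were higher (H2-T-ps, H2-M2, H2-Q10 and H2-Q7) and 1 was lower (H2-Ke6), where the background was 1.75% of tested genes (0.719% higher and 1.03% lower). DESeq2 and limma-voom each had 4 members at that level. The groups did not overlap for 3 members that were higher (H2-T-ps, H2-M2 and H2-Q10) and for 3 that were lower (H2-T22, H2-T24 and H2-Ke6), which is 22.2% of the tested members against a background of 5.52% (2.52% higher and 3% lower). The median log2 fold change over tested members was 0.126, against 0.019 for all tested genes, and it was -0.177 without MBZ_254. In bulk tissue, fewer cells of a type and less RNA per cell cannot be told apart.

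**Figure D1:**
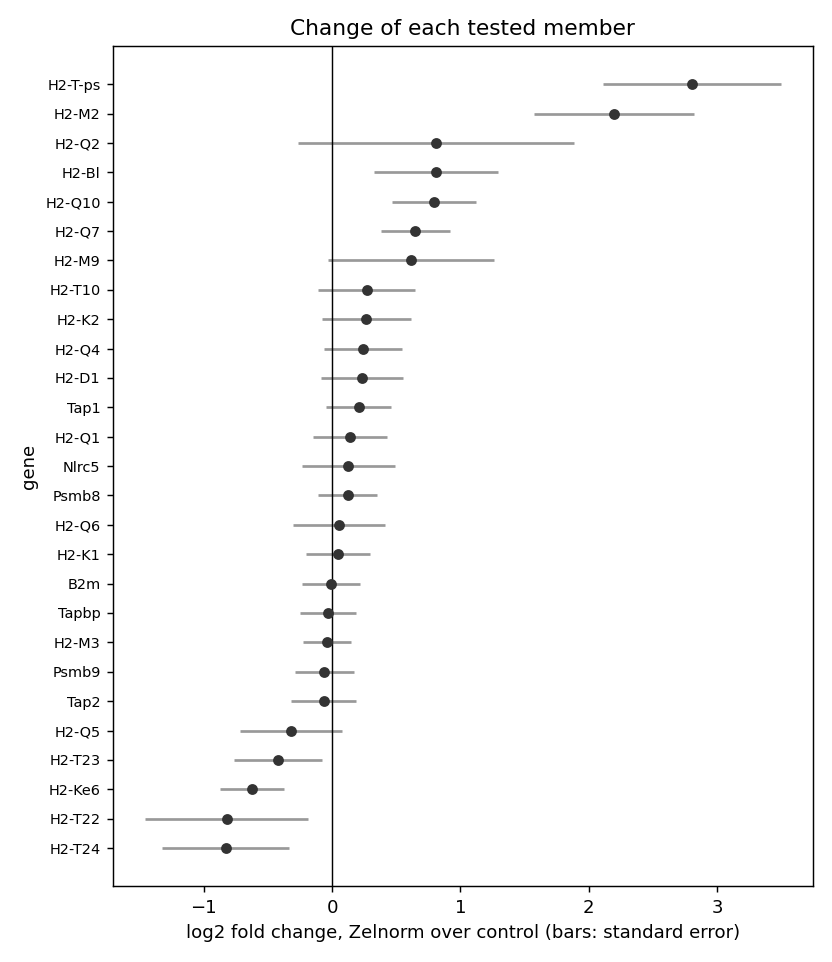
Fold change of each of the 27 tested members, as the log2 of Zelnorm over control from edgeR's quasi-likelihood fit (points) with its standard error (bars). H2-T-ps (2.80) and H2-M2 (2.19) lie farthest above 0, H2-T24 (-0.83) and H2-T22 (-0.82) farthest below, and the classical and peptide loading genes lie near 0.

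Neither classical heavy chain passed the test, and both spread more widely among the Zelnorm tumours than among the controls. H2-K1 (chr17:33996017-34000347, minus strand, coordinates of GRCm38 here and below) was at 500, 410 and 440 CPM in the controls and at 645, 349 and 400 CPM in the Zelnorm tumours. The highest and the lowest library were both Zelnorm tumours, MBZ_254 and MBZ_257, and the groups overlapped. The means were 450 ± 46.1 and 465 ± 158 CPM (SD, n = 3 each), with a log2 fold change of 0.046 (SE 0.25).

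H2-D1 (chr17:35262730-35267499, plus strand), the other classical chain, was at 991, 1020 and 1090 CPM in the controls and at 1580, 637 and 1430 CPM in the Zelnorm tumours. MBZ_254 and MBZ_259 lay above all controls and MBZ_257 below them. The means were 1030 ± 52.3 and 1210 ± 505 CPM, with a log2 fold change of 0.23 (SE 0.32). Per kilobase of exon, H2-D1 stood above H2-K1 in each tumour, by a ratio of 2.26, 2.82 and 2.83 in the controls and of 2.79, 2.08 and 4.07 in the Zelnorm tumours. MBZ_259 had the highest ratio and MBZ_257 the lowest.

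B2m (chr2:122147686-122153083, plus strand), the light chain, lies outside the MHC and was at 626, 631 and 688 CPM in the controls and at 831, 474 and 631 CPM in the Zelnorm tumours. MBZ_254 was again the highest and MBZ_257 the lowest library, around a control range of 626 to 688 CPM. The means were 648 ± 34.5 and 645 ± 179 CPM, with a log2 fold change of -0.007 (SE 0.225). The CPM of all class I heavy chain rows summed was 2.99, 2.85 and 2.92 times that of B2m in the controls and 3.4, 2.85 and 3.37 times in the Zelnorm tumours. In MBZ_257 the ratio lay in the control range, while the heavy chain sum itself was 1350 CPM there and 1800 to 2010 CPM in the controls.

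Peptide transport and loading genes were also highest in MBZ_254 and lowest in MBZ_257, while the order of the other tumours differed between genes. Tap1 (chr17:34187553-34197225, plus strand) was at 48.1, 37.8 and 49.3 CPM in the controls and at 70.6, 35.2 and 50.1 CPM in the Zelnorm tumours. Its means were 45.1 ± 6.3 and 51.9 ± 17.8 CPM, with a log2 fold change of 0.21 (SE 0.25). Tap2 (chr17:34203527-34216321, plus strand), the partner of Tap1 in the transporter, was at 40.7, 45.2 and 45.6 CPM in the controls and at 54, 25.7 and 45.6 CPM in the Zelnorm tumours. Only MBZ_254 exceeded the controls for Tap2, and MBZ_257 fell outside their range on the low side. Its means were 43.9 ± 2.72 and 41.8 ± 14.5 CPM, with a log2 fold change of -0.067 (SE 0.256). Tapbp (chr17:33915899-33929292, plus strand), which encodes tapasin, was at 130, 164 and 140 CPM in the controls and at 185, 111 and 129 CPM in the Zelnorm tumours. The means of Tapbp were 145 ± 17.5 and 142 ± 38.9 CPM, with a log2 fold change of -0.032 (SE 0.22), and the groups overlapped for all of these genes.

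The immunoproteasome subunits also had their highest level in MBZ_254 and their lowest in MBZ_257. Psmb8 (chr17:34197721-34201454, plus strand) was at 51.6, 43 and 55.1 CPM in the controls and at 68.7, 37.4 and 56.5 CPM in the Zelnorm tumours, with means of 49.9 ± 6.2 and 54.2 ± 15.8 CPM and a log2 fold change of 0.12 (SE 0.23). Psmb9 (chr17:34181987-34187764, minus strand) was at 22.9, 18.3 and 25.1 CPM in the controls and at 27.1, 16.1 and 20.2 CPM in the Zelnorm tumours. Its means were 22.1 ± 3.48 and 21.1 ± 5.54 CPM, with a log2 fold change of -0.061 (SE 0.23). Psmb9 and Tap1 are divergent genes whose annotated ends overlap, and the labels do not say whether counting used strand, so reads from the shared stretch cannot be assigned to either gene. The groups overlapped for both subunits.

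Nlrc5 (chr8:94434356-94527272, plus strand), the transactivator, was at 25.5, 15.4 and 25.9 CPM in the controls and at 37.9, 14.6 and 20.1 CPM in the Zelnorm tumours. NC4 lay next to MBZ_257 at the low end. The means were 22.3 ± 5.92 and 24.2 ± 12.1 CPM, with a log2 fold change of 0.126 (SE 0.362).

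**Figure D2:**
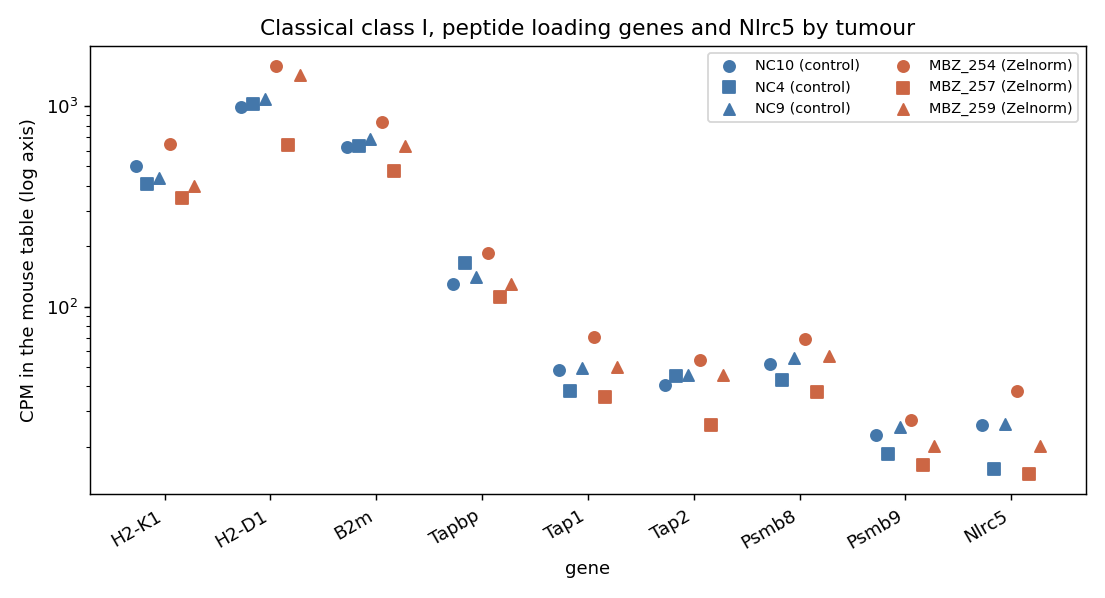
Level of the classical heavy chains, B2m, the peptide loading genes and Nlrc5 in each tumour, in CPM of the mouse table on a log axis, with controls in blue and Zelnorm tumours in red. MBZ_254 (red circles) is the highest and MBZ_257 (red squares) the lowest library for each of the 9 genes.

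All 9 of these genes were highest in MBZ_254 and lowest in MBZ_257, so the extremes were both Zelnorm tumours. Of the 27 tested members, 20 were highest in MBZ_254 and 12 were lowest in MBZ_257. Over all tested genes, 20.8% were highest in MBZ_254 and 29.3% were lowest in MBZ_257. Markers of other cells also set these tumours apart. Of the 6 T cell markers listed, 2 passed the filter. All 6 summed to 20.9 to 43.5 CPM in the controls and 29.1 to 83.1 CPM in the Zelnorm tumours, highest in MBZ_254. Cd4, the CD4 coreceptor, gave most of this sum, at 40.9, 33.2 and 17.7 CPM in the controls and 51.2, 33.1 and 25.9 CPM in the Zelnorm tumours. It had 255 counts in NC10 and 179 in MBZ_257, where Cd3e, a chain of the T cell receptor complex, was at 0. The sum there therefore cannot be read as a level of T cells. Cd8a, the CD8 coreceptor chain, had 117 counts in MBZ_254 and 1 to 5 in each other tumour, and Cd3e had 44 counts there, with 0 in NC10 and in MBZ_257. For Cxcl9, an interferon gamma-induced chemokine, the level was 17, 11.4 and 51.5 CPM in the controls and 83.6, 20.7 and 46.7 CPM in the Zelnorm tumours. Cxcl9 belongs to a list of 15 interferon-stimulated genes, most of which were highest in a control. Irf7, for example, was at 69.5 CPM in NC9 and at 64.5 CPM in MBZ_254. The 4 fibroblast markers summed to 17000 to 29200 CPM in the controls and to 8510 to 20700 CPM in the Zelnorm tumours, and the 4 endothelial markers to 665 to 1000 and 520 to 883 CPM, both lowest in MBZ_257. Each of these 8 markers was lower in the Zelnorm group by its fold change, 1 endothelial marker with an unadjusted p under 0.05 and none called in edgeR. Cd3d, another T cell marker, was at 0 in the same tumours as Cd3e, and no fibroblast or endothelial marker was at 0 in any tumour. The part of these cells in the order of the class I genes was not tested.

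Levels of the antigen presentation genes tracked Nlrc5 across the 6 tumours to different degrees. Over 8 relations on log2 CPM, Pearson's r with Nlrc5 was 0.96 for Psmb9, 0.95 for Tap1, 0.93 for H2-K1, 0.92 for Psmb8, 0.86 for B2m, 0.71 for H2-D1, 0.68 for Tap2 and 0.57 for Tapbp. In an exact two-sided permutation test over all pairings, p was 0.00694 for Psmb9 and H2-K1, 0.00972 for Tap1, 0.0125 for Psmb8 and 0.0306 for B2m (Benjamini-Hochberg adjusted over the 8, 0.025 for the first 4 and 0.0489 for B2m). The exact permutation p was 0.112 for H2-D1, 0.11 for Tap2 and 0.244 for Tapbp (adjusted 0.129, 0.129 and 0.244). Spearman's rho was 1 for Psmb9, with an exact permutation p of 0.00278, the smallest these pairings can give (adjusted 0.0222). It was 0.89 for H2-K1 (exact permutation p = 0.0333, adjusted 0.0933), 0.83 for Tap1, Psmb8 and Tap2 (0.0583, adjusted 0.0933), 0.77 for B2m (0.103, adjusted 0.137), 0.71 for H2-D1 (0.136, adjusted 0.156) and 0.66 for Tapbp (0.175, adjusted 0.175). Psmb9 was the only 1 of the 8 whose rank relation passed after adjustment. The relations take the tumours of both groups together. How many of all tested genes track Nlrc5 as closely was not tested, so they cannot be called particular to these genes.

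MBZ_254 and MBZ_257 lay farthest from the median of Nlrc5. Without them, r over the remaining 4 tumours was 0.96 for Psmb9, 0.83 for Tap1, 0.74 for Psmb8, 0.7 for H2-K1 and 0.48 for B2m. It was -0.08 for H2-D1, -0.44 for Tap2 and -0.73 for Tapbp, so the positive relations of these genes were not kept without both tumours. Leaving out the extremes of Nlrc5 also narrows its range. Without MBZ_254 or MBZ_257 alone, r was 0.5 and 0.54 for H2-D1, 0.54 and 0.56 for Tap2, and 0.07 and 0.35 for Tapbp. Without NC4 alone, r was 0.76 for H2-D1, 0.88 for Tap2 and 0.95 for Tapbp, so these relations also depended on that control. The T cell markers and Cxcl9 were also highest in MBZ_254, while most of the other listed interferon-stimulated genes were highest in a control. The part of these markers in the relations with Nlrc5 was not tested.

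**Figure D3:**
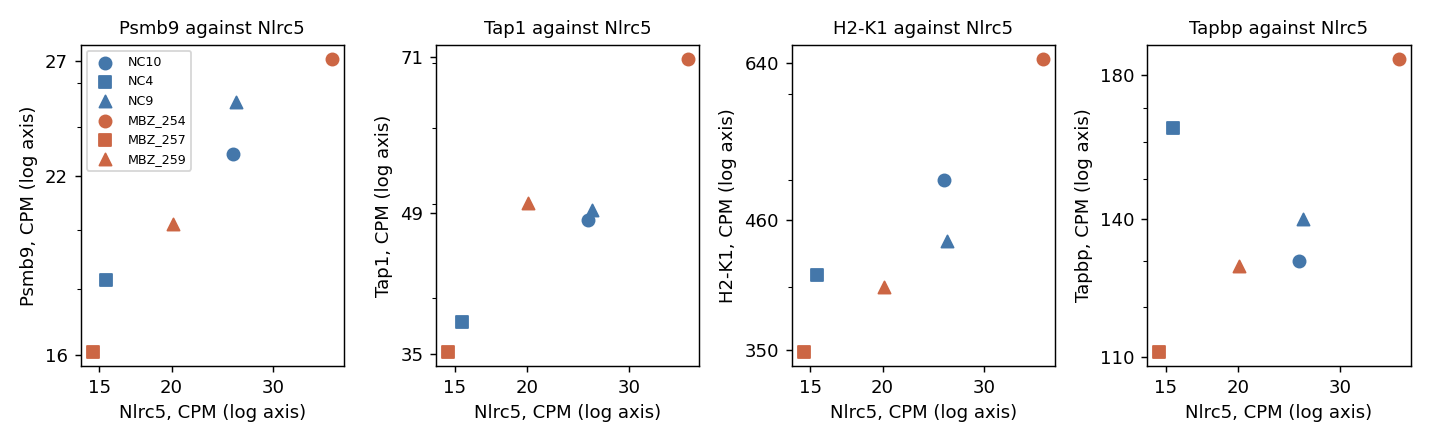
Level of Psmb9, Tap1, H2-K1 and Tapbp (vertical axes) against Nlrc5 (horizontal axes) in the 6 tumours, in CPM on log axes, with controls in blue and Zelnorm tumours in red. Psmb9 keeps the order of Nlrc5 in all 6 tumours, while NC4 stands high for Tapbp at a low level of Nlrc5.

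Compared per kilobase of exon, B2m had the highest level of the tested members, at 752 ± 134 CPM per kb (SD over the 6 tumours), followed by H2-D1 at 436 ± 130 and H2-K1 at 156 ± 35.5. The ranges of B2m (551 to 967) and H2-D1 (247 to 612) overlapped, although B2m was the higher in each of the 6 tumours, while those of H2-D1 and H2-K1 (119 to 219) did not. Tapbp at 39.5 ± 7.45, H2-Q4 at 32 ± 10.2 and H2-T23 at 30.8 ± 10.2 CPM per kb came next with overlapping ranges, although Tapbp was above H2-Q4 in each of the 6 tumours. H2-Q6, Psmb8, H2-Q7, H2-M3 and Tap2 had mean levels between 11.3 and 21 CPM per kb. Every other tested member had a mean under 10 CPM per kb, and H2-Q10 had the lowest mean, at 1.39 ± 0.508. Its range (0.664 to 2.13) overlapped those of H2-Q2 (0.0735 to 3.22) and H2-Bl (0.572 to 2.79). Exonic lengths merge all annotated transcripts of a gene, and these ranks depend on them.

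The Q genes lie in tandem, share much of their sequence and gave a mixed picture. H2-Q7 (chr17:35439155-35443773, plus strand) encodes the Qa-2 antigen and was at 37.8, 50.9 and 50.7 CPM in the controls and at 101, 69.4 and 48.6 CPM in the Zelnorm tumours. MBZ_254 and MBZ_257 lay above the controls and MBZ_259 among them. The means were 46.5 ± 7.5 and 72.9 ± 26.3 CPM, with a log2 fold change of 0.65 (SE 0.27, unadjusted p = 0.0428), which was 0.33 without MBZ_254. H2-Q10 (chr17:35470089-35474563, plus strand), known for a soluble class I molecule from the liver, was at 2.89, 4.67 and 5.65 CPM in the controls and at 6.48, 9.25 and 7.43 CPM in the Zelnorm tumours. All 3 Zelnorm tumours lay above all controls, with means of 4.4 ± 1.4 and 7.72 ± 1.41 CPM and a log2 fold change of 0.79 (SE 0.33, unadjusted p = 0.0413).

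H2-Q10 and H2-Q7 share 14% of their 50-base words with each other, and the counts behind H2-Q10 were only 17.73 to 65.14 per library, so the rows are uncertain as separate genes. In total 26.4% of the 50-base words of H2-Q7, 32% of those of H2-Q6 and 36.4% of those of H2-Q5 also occur in another gene. A stretch of the coding sequence shows how H2-Q6 and H2-Q7 differ, here coding bases 61 to 180 from GENCODE vM21 transcripts with mismatches in capitals (14 mismatches, 88.3% identity).
H2-Q6: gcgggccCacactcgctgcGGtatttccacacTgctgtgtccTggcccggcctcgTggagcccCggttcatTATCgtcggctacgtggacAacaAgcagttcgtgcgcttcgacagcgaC
H2-Q7: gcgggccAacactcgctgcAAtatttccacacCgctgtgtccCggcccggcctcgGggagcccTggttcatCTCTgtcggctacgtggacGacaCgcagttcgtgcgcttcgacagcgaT

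H2-Q6 gave another order of tumours than H2-Q7, at 37, 35.4 and 56.6 CPM in the controls and 71.8, 32 and 30.1 CPM in the Zelnorm tumours (log2 fold change 0.053, SE 0.358). With both rows summed, the level was 74.9, 86.3 and 107 CPM in the controls and 173, 101 and 78.6 CPM in the Zelnorm tumours, so the groups overlapped and MBZ_254 alone stood above the controls. H2-Q4, whose level was the highest of the Q rows, ran from 57.4 to 96.9 CPM in the controls and from 60.3 to 128 CPM in the Zelnorm tumours. H2-Q1 ran from 10.4 to 16.4 and from 9.44 to 18.2 CPM, and H2-Q5 from 8.04 to 18.5 and from 5.94 to 12.7 CPM. H2-K2, an annotated pseudogene near H2-K1, ran from 2.89 to 5.76 and from 4.44 to 6.61 CPM. The groups overlapped for each of these rows.

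Among the T genes, H2-T22 and H2-T24 were far lower in MBZ_259 than in any other tumour. H2-T22 (chr17:36037128-36042747, minus strand), which encodes a ligand of gamma delta T cell receptors, was at 40.1, 35.6 and 42.7 CPM in the controls and at 31.8, 32.4 and 3.43 CPM in the Zelnorm tumours. All 3 Zelnorm tumours lay below all controls, but MBZ_254 and MBZ_257 were close to them and the highest library exceeded MBZ_259 12.5-fold. The means were 39.5 ± 3.56 and 22.5 ± 16.5 CPM, with a log2 fold change of -0.82 (SE 0.64, unadjusted p = 0.233). Without MBZ_259 it was -0.30.

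H2-T24 (chr17:36005695-36020560, minus strand) was at 24.5, 25 and 32.7 CPM in the controls and at 21.2, 21.1 and 4.46 CPM in the Zelnorm tumours. Its groups did not overlap either, and MBZ_259 was again the tumour apart. The means were 27.4 ± 4.58 and 15.6 ± 9.64 CPM, with a log2 fold change of -0.83 (SE 0.49, unadjusted p = 0.132), and -0.38 without MBZ_259. H2-T23 (chr17:36029773-36032855, minus strand) lies between these genes and encodes the heavy chain of Qa-1, the ligand of the NK cell receptor CD94/NKG2A. Its level ran from 90.2 to 112 CPM in the controls and was 118, 69.6 and 40.5 CPM in the Zelnorm tumours, lowest in MBZ_259, with a log2 fold change of -0.42 (SE 0.34). Of 8 NK cell markers, 6 passed the filter, all 6 lower in the Zelnorm group by their fold change and none of them with an unadjusted p under 0.05. All 8 markers summed to 11.7 to 30.5 CPM in the controls and 6.66 to 18.3 CPM in the Zelnorm tumours, with Klrb1c and Prf1 at 0 counts in MBZ_257. Their part in the level of H2-T23 was not tested.

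H2-T10 is the closest relative of H2-T22, and 31.7% of its 50-base words occur in H2-T22. In coding bases 61 to 180 the reference copies differ at 1 base, shown in capitals (99.2% identity), so short reads from this stretch can hardly be told apart.
H2-T22: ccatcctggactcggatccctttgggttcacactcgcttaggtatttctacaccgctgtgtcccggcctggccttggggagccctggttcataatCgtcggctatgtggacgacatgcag
H2-T10: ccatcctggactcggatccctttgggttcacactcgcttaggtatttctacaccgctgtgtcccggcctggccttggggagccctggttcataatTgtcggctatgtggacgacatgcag

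H2-T10 did not follow H2-T22 in MBZ_259. It was at 12.2, 11.4 and 12.2 CPM in the controls and at 21.9, 6.66 and 14.3 CPM in the Zelnorm tumours, highest in MBZ_254 and lowest in MBZ_257 like the classical genes. Summed, H2-T10 and H2-T22 were at 52.3, 47.1 and 54.9 CPM in the controls and at 53.6, 39 and 17.7 CPM in the Zelnorm tumours. MBZ_259 stayed the lowest tumour in the sum, and MBZ_254 then lay within the control range, so the groups overlapped. The division of reads between these rows, and between them and other genes that share their sequence, is uncertain.

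H2-T-ps (chr17:36109234-36111658, minus strand), an annotated pseudogene next to H2-T10, had the smallest p of the members. It was at 0.641, 1.56 and 1.85 CPM in the controls and at 14.9, 2.22 and 11.8 CPM in the Zelnorm tumours. MBZ_254 and MBZ_259 stood far above all others, and MBZ_257 was just above the highest control. The means were 1.35 ± 0.629 and 9.62 ± 6.59 CPM, with a log2 fold change of 2.80 (SE 0.69, unadjusted p = 0.00379, adjusted p = 1 in edgeR), and the adjusted p ran from 0.0527 to 1 over the alternatives. The estimated counts were 3.61, 12.28 and 17.22 in the controls and 117.01, 11.61 and 103.37 in the Zelnorm tumours. Since 18% of its 50-base words occur in H2-T23 and 29.4% in any other gene, its counts may include reads of other genes. H2-T23 and H2-T-ps summed to 103, 91.8 and 114 CPM in the controls and to 133, 71.8 and 52.2 CPM in the Zelnorm tumours.

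Among the remaining T and Bl rows, H2-Bl ran from 0.962 to 2.85 CPM in the controls and from 2.29 to 4.7 CPM in the Zelnorm tumours (log2 fold change 0.81, SE 0.48). All T and Bl rows together were at 181, 167 and 204 CPM in the controls and at 212, 136 and 76.7 CPM in the Zelnorm tumours. MBZ_259 thus had the lowest T gene total of the 6 tumours, although H2-D1 was above all controls there.

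Of the M genes, H2-M3 and H2-M2 behaved differently. H2-M3, which presents N-formylated peptides of bacterial and mitochondrial origin, was the steadiest member, at 21.5, 19.6 and 16.6 CPM in the controls and 20.7, 19.6 and 15.9 CPM in the Zelnorm tumours. Its highest library exceeded the lowest 1.35-fold. H2-M2 (chr17:37480851-37483552, minus strand) was at 1.76, 0.389 and 1.85 CPM in the controls and at 9.65, 5.74 and 3.09 CPM in the Zelnorm tumours. All 3 Zelnorm tumours lay above all controls, on estimated counts of 11, 3 and 17.07 against 76, 31 and 27. The means were 1.33 ± 0.819 and 6.16 ± 3.3 CPM, with a log2 fold change of 2.19 (SE 0.62, unadjusted p = 0.00792, adjusted p = 1 in edgeR and from 0.445 to 1 over the alternatives). Only 1.61% of its 50-base words occur in another gene. H2-M9 ran from 1.92 to 4.41 CPM in the controls and from 1.48 to 8.38 CPM in the Zelnorm tumours.

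H2-Ke6 (chr17:34026033-34028060, minus strand), the enzyme gene, was at 8.34, 7.78 and 10.3 CPM in the controls and at 5.34, 5.37 and 6.4 CPM in the Zelnorm tumours. All 3 Zelnorm tumours lay below all controls, with means of 8.81 ± 1.34 and 5.7 ± 0.606 CPM and a log2 fold change of -0.63 (SE 0.25, unadjusted p = 0.037). It is uncertain, since 70.5% of its 50-base words are shared with the annotated transcript Gm20427.

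The 13 members left did not pass the filter on low counts, and 7 of them had 0 counts in all 6 libraries. A count of 0 allows up to 3 counts, which is 0.326 to 0.555 CPM in these libraries and covers counting error only. Those 7 were H2-M10.1, H2-M10.2, H2-M10.4, H2-M10.5, H2-M10.5-ps1, H2-M6-ps and H2-T3. The M10 family is known from vomeronasal sensory neurons, and H2-T3 encodes the thymus leukaemia antigen, known from intestinal epithelium. H2-M11 had 19 counts in all, 8 of them in MBZ_254, H2-M5 had 4 counts in MBZ_257 and 1 in MBZ_254, and H2-M1 had 3 counts in MBZ_254. H2-M10.3, H2-M10.6 and H2-Q3 had fewer than 3 counts over all libraries.

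**Figure D4:**
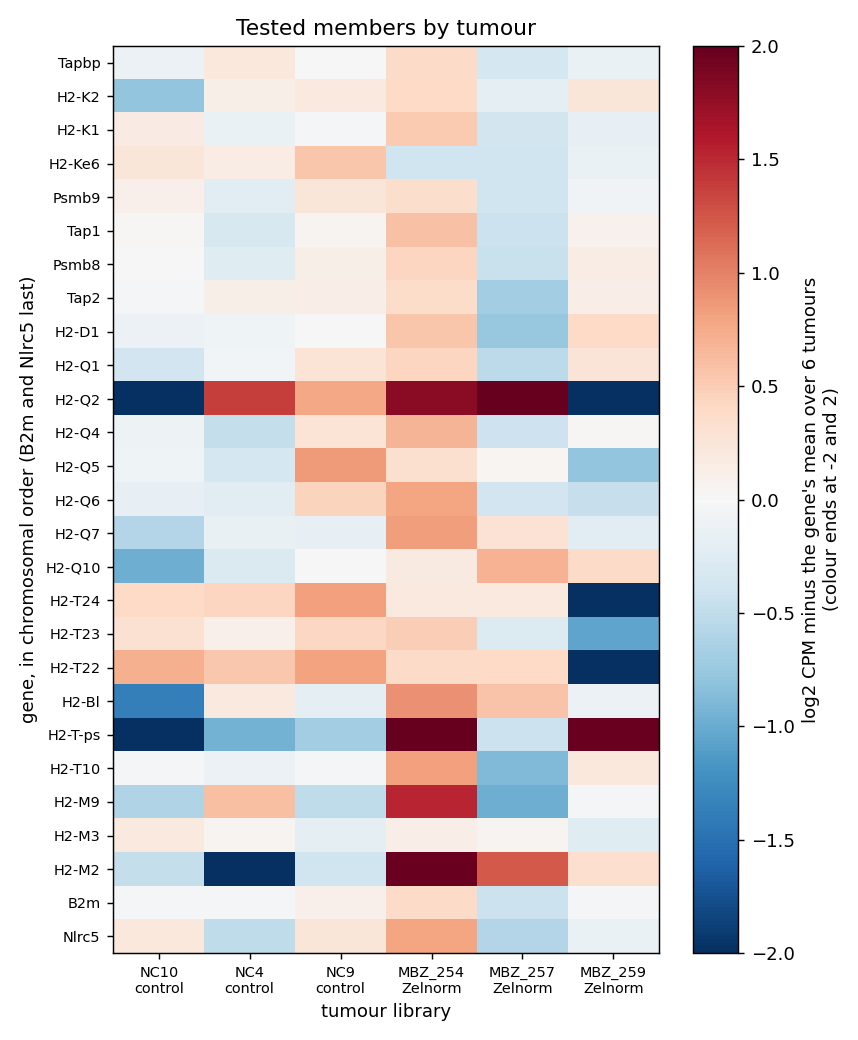
Log2 CPM of each tested member minus its mean over the 6 tumours, with genes in chromosomal order and the colour ending at -2 and 2. MBZ_254 is mostly red from Tapbp to H2-D1, MBZ_257 mostly blue, and MBZ_259 is deep blue at H2-Q2, H2-T24 and H2-T22 and red at H2-T-ps.

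Differences of over 10-fold between libraries were more frequent in the MHC than elsewhere. Counting genes with at least 50 counts in the highest library, 3 members exceeded 10-fold (H2-T22, H2-T-ps and H2-M2), against a background of 2.11% of tested genes. Between Tapbp and H2-M2 on chromosome 17, 11 of 132 tested genes did so (8.33%), 3 of them members, and elsewhere 294 of 14327 (2.05%). This division was chosen after the values were seen, and the difference was not tested. The rows named next were chosen the same way.

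H2-Q2 (chr17:35342242-35346762, plus strand) had estimated counts of 1, 31.66 and 25.24 in the controls and 43.91, 38.36 and 2.45 in the Zelnorm tumours, so it was near the floor of 3 counts in NC10 and in MBZ_259. The class II gene H2-Eb1 had the same tumours apart, at 8.98, 202 and 242 CPM in the controls and 443, 639 and 5.37 CPM in the Zelnorm tumours. H2-Ea-ps, the class II E alpha chain locus, annotated as a polymorphic pseudogene, was at 8.98, 117 and 158 and at 253, 426 and 6.17 CPM. Gm10499, an annotated pseudogene between H2-T10 and the M genes, was at 3.21, 22.6 and 27.9 and at 44.3, 43.3 and 1.37 CPM. In each of these 4 rows, NC10 and MBZ_259 were the lowest libraries, a control and a Zelnorm tumour. The class II genes H2-Aa and H2-Ab1 did not share this. H2-Aa was highest in NC10 at 1360 CPM, and H2-Ab1 was at 823 CPM there, below only MBZ_254 at 852 CPM.

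The low level in MBZ_259 of H2-T22 and H2-T24 was not shared by NC10, which lay within the range of the other controls for H2-T22 and at the low end for H2-T24. A930015D03Rik (chr17:35994453-36038435, plus strand), an antisense transcript that spans H2-T24 and H2-T23 and reaches into H2-T22, was also low in MBZ_259, at 0.686 CPM, against 7.37 to 14 CPM in the other tumours. The labels do not say whether counting used strand, and whether its exons overlap those of the T genes was not tested. The division of reads between this transcript and the T genes is therefore uncertain. The reference genome is of the strain C57BL/6J, and whether the hosts carried other forms of the locus was not tested. In the same tumour the heat shock genes Hspa1b and Hspa1a, which also lie in the MHC, were at 6130 and 2230 CPM, against 327 to 693 and 169 to 289 CPM in the others.

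**Figure D5:**
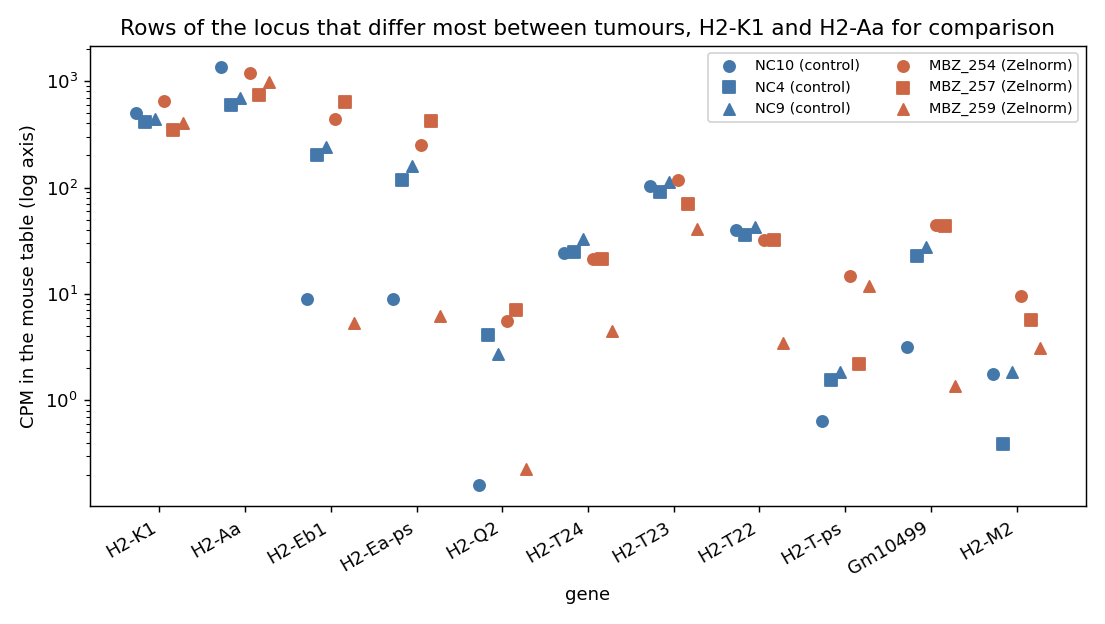
Level in each tumour of MHC rows that differed most between libraries, with H2-K1 and H2-Aa for comparison, in CPM of the mouse table on a log axis, controls in blue and Zelnorm tumours in red. NC10 (blue circles) and MBZ_259 (red triangles) are lowest for H2-Eb1, H2-Ea-ps, H2-Q2 and Gm10499, and MBZ_259 alone is low for H2-T24 and H2-T22.

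Other genes of the pathway gave no call. Of 26 listed genes for peptide trimming, chaperones, interferon signalling, class I-like molecules and class I receptors, 24 passed the filter, 9 of them higher and 15 lower, 0 with an adjusted p under 0.05 and 0 with an unadjusted p under 0.05 in edgeR. DESeq2 and limma-voom also called 0. Their median log2 fold change was -0.017, against 0.019 for all tested genes, and 7 were highest in MBZ_254. Irf1, a transcription factor of the interferon response, was at 53.4, 49.5 and 51.9 CPM in the controls and at 69.5, 59.9 and 58.9 CPM in the Zelnorm tumours. It was the only gene of the list whose groups did not overlap, 4.17% of the 24 against a background of 5.52%, with a log2 fold change of 0.28 (SE 0.14, unadjusted p = 0.074). Tapbpl, which encodes the tapasin-related peptide editor, was at 10.4, 8.3 and 11.3 CPM in the controls and at 17.2, 11.3 and 13.3 CPM in the Zelnorm tumours (log2 fold change 0.48, SE 0.24). Cd1d1, which presents lipids to NKT cells, was at 6.09, 7.13 and 7.6 CPM and at 6.86, 2.78 and 4.57 CPM (log2 fold change -0.54, SE 0.36). Jak1, a kinase of cytokine receptors, was at 251, 272 and 233 CPM and at 250, 196 and 215 CPM (log2 fold change -0.19, SE 0.17).

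The human table, meant for the tumour cells, did not rank the tumours as the mouse table did. Of 7 same-symbol partners (B2M, TAP1, TAP2, TAPBP, PSMB8, PSMB9 and NLRC5), 1 was highest and 3 were lowest in MBZ_254. Human B2M was at 633, 514 and 751 CPM of the human table in the controls and at 656, 598 and 633 CPM in the Zelnorm tumours. NLRC5 was at 11.5, 14 and 16.6 CPM in the controls and at 9.89, 14 and 10 CPM in the Zelnorm tumours, lowest in MBZ_254, where mouse Nlrc5 was highest. The human partners had 1.44 (TAP2) to 4.43 (TAP1) times the mean counts of the mouse genes. These counts are unscaled, and the human table was the deeper. It held 24602178 to 39278195 counts per library, against 5817165 to 9228446 in the mouse table. The ratios therefore do not compare levels between tumour cells and host. No source used here says how reads were assigned to the human or the mouse table, and the part of human reads in the mouse counts of these partners was not tested.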

How the data were processed

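RNA of 6 tumours was measured by RNA-seq with a TruSeq library, per the labels' protocols. The values the authors deposited are estimated counts per gene, in a mouse and a human table, and 26.5% of the values above 0 in named mouse rows were not whole. HISAT2, StringTie, DESeq2, edgeR, GRCh38 and GRCm38 are named per the submitters' processing notes. Versions, roles and the assignment of reads to a table or gene copy are not given in the sources used here. Tests planned on whole counts were run on estimated counts after rounding. Rows without a gene name (856 of 56392, 0.317% to 0.468% of a library's counts) were left out. Columns were tied to a group by their prefix.

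Zelnorm was compared with control in edgeR 4.0.16 (R 4.3.3) by the two-sided quasi-likelihood test after filterByExpr and TMM scaling, on group alone, over all 14459 genes that passed, called at an adjusted p under 0.05. The standard error (SE) was derived from the F statistic. DESeq2 1.42.0, limma-voom (limma 3.58.1), other scalings and filters, rounding down and leaving out each library were alternatives. The fit was tested on simulated data. All named rows matched GENCODE vM21, which gave coordinates, exonic lengths and the shared 50-base words. Human values were scaled within their own table.

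Full values are given for H2-K1, H2-D1, B2m, Tap1, Tap2, Tapbp, Psmb8, Psmb9 and Nlrc5. They are also given for members with an unadjusted p under 0.05, with groups that did not overlap, or with the highest library over 10 times the lowest and at least 50 counts in it. Of the pathway list the 4 genes with the smallest p are named. The members and lists were chosen with earlier results of these data known.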

Additional observations from a re-analysis of the deposited data

How the results depend on the processing

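Over 12 alternatives, the number of mouse genes called was 0 in 10 and moved to 6 with DESeq2 and to 2 without the count filter, and no member and no gene of the pathway list was called in any. Members with groups that did not overlap were 6 in the alternatives that kept all libraries and 6 to 12 when a library was left out, with 10 (37% of tested members) without MBZ_254 and 12 (44.4%) without MBZ_257. Smaller groups separate more often, and over all genes the share rose from 5.52% to 24% without MBZ_254 and 14% without MBZ_257. It was 12.8% without MBZ_259, where the share of members was 33.3%. Without a control it was 11.7% to 12.2%, with members at 22.2% to 25.9%. Members with an unadjusted p under 0.05 ranged from 2 to 5, and over all genes from 177 to 866 (without MBZ_254). Of 372 fold changes (31 genes by 12 alternatives), 343 kept their direction and 29 in 16 genes turned. With limma-voom, H2-K1 turned to -0.011 and H2-Q6 to -0.032. All other turns came from leaving out a library, with log2 fold changes from -0.272 to 0.232 for H2-K1, -0.008 to 0.556 for H2-D1, -0.24 to 0.188 for B2m, -0.085 to 0.436 for Tap1, -0.301 to 0.197 for Tap2, -0.284 to 0.133 for Tapbp, -0.093 to 0.341 for Psmb8, -0.286 to 0.111 for Psmb9 and -0.357 to 0.397 for Nlrc5. They ran from -0.056 to 0.379 for H2-Q1, -0.111 to 0.476 for H2-Q4, -0.577 to 0.135 for H2-Q5, -0.482 to 0.3 for H2-Q6, -0.177 to 0.614 for H2-T10, -0.138 to 0.071 for H2-M3 and -0.35 to 1.096 for H2-M9. The fold changes of H2-T-ps (2.348 to 3.266), H2-M2 (1.691 to 2.536), H2-Q10 (0.56 to 1.009), H2-Ke6 (-0.721 to -0.503), H2-T22 (-1.192 to -0.301) and H2-T24 (-1.153 to -0.376) kept their direction without each library. The relation with Nlrc5 (r) ran over the libraries left out from 0.96 to 0.98 for Psmb9, 0.89 to 0.98 for Tap1, 0.81 to 0.96 for H2-K1, 0.84 to 0.98 for Psmb8, 0.68 to 0.97 for B2m, 0.5 to 0.85 for H2-D1, 0.54 to 0.88 for Tap2 and 0.07 to 0.95 for Tapbp, lowest without MBZ_254 for all but Psmb9. The cause of these moves was not tested. No paired analysis was possible because the columns carry no replicate number of the labels. Counts under about 20 per library limit H2-M2, H2-T-ps, H2-Q10 and H2-Q2, and for rows at 0 only levels above 3 counts could have been seen.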

Other observations

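Interferon-stimulated genes, a response list of 15 genes that all passed the filter, were higher in 3 and lower in 12, none with an unadjusted p under 0.05. Their summed level was 398, 264 and 480 CPM in the controls and 512, 287 and 320 CPM in the Zelnorm tumours. The sum was highest in MBZ_254 and lowest in NC4. Cxcl9 weighed on this order, at 83.6 CPM in MBZ_254 and 51.5 CPM in NC9. Oas1a, Gbp2 and Gbp3 were also highest in MBZ_254, and all other genes of the list were highest in NC9 or NC10.

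Of the other lists, macrophage markers summed to 2800 to 3710 CPM in the controls and 3710 to 3980 CPM in the Zelnorm tumours. Lyz2 was the largest part, at 1780, 1520 and 1300 CPM in the controls and 1830, 2320 and 2280 CPM in the Zelnorm tumours. Of the 6 macrophage markers, 4 were higher and 2 lower by their fold change, 1 with an unadjusted p under 0.05 in edgeR. B cell markers summed to 84.5 to 96 and 64.6 to 137 CPM, of which Ighm gave nearly all, dendritic cell markers to 89 to 128 and 102 to 123 CPM, and neutrophil markers to 31.3 to 49 and 34.8 to 45.2 CPM. Adipocyte markers summed to 101 to 285 and 12.1 to 61.7 CPM, with 3 of 3 tested markers lower at an unadjusted p under 0.05 and Cfd called by DESeq2. Skeletal muscle markers summed to 228 to 1530 and 68.5 to 3870 CPM, with the highest muscle level in MBZ_259, the tumour with the lowest H2-T22.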
